A study of Mus musculus with 8 samples.

Results

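A set of 10 genes that mark capillary-type and large-vessel endothelium was followed in sorted liver sinusoidal endothelial cells of mice given iron. They are the sialomucins *Cd34*, *Podxl* and *Emcn*, the diaphragm and caveola genes *Plvap* and *Cav1*, the membrane-anchored *Ly6a* and *Cdh13*, the arterial ligand *Efnb2*, the filament gene *Vim* and the matrix gene *Ltbp4*. Members were taken by symbol, and each of the 10 matched 1 of the 23930 RefSeq targets. Cells came from livers of young, wild type, female Balb/c mice, 1 mouse per library, and were sorted as CD45-dim, STAB2-high and CD146-high. The 4 controls had been injected intravenously with 0.05 M citrate buffer and the 4 treated mice with 150 µg of iron citrate, and both were sampled after 5 h. Strain, sex, genotype and sort were shared by both groups. The design text speaks of 5 mice a group, and 4 a group are analysed here. The p-values rest on the spread between these libraries only.

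Sinusoidal endothelium differs from most other endothelium in having open fenestrae and almost no basement membrane. In chronic liver disease it can lose fenestrae, lay down matrix and gain markers of ordinary capillaries such as CD34, a change called capillarisation. The 10 genes belong to the continuous or large-vessel programme that such cells approach, though several of them are also made at some level by healthy sinusoidal cells, and *Vim*, *Cd34*, *Podxl* and *Ly6a* are also made by blood, stromal or mesothelial cells.

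None of the 10 members was called after iron citrate by edgeR at an adjusted p under 0.05, where 0.555% of the 14601 tested targets were called. In each member the 4 iron values overlapped the 4 buffer values, while 8.64% of tested targets had groups that did not overlap. Levels are given as CPM, counts scaled to a common library size with edgeR's TMM factors. An unadjusted p under 0.05 was found for 2 members, *Ly6a* and *Podxl*, and for 14.6% of tested targets. DESeq2 called 0 of 10 members and 2.41% of targets, with 2 members (*Ly6a* and *Podxl*) and 20.7% of targets at an unadjusted p under 0.05. limma-voom called 0 of 10 members and 1.99% of targets, with 2 members (*Ly6a* and *Plvap*) and 14.6% of targets at an unadjusted p under 0.05. The median log2 fold change of the members was -0.03, and that of all tested targets was -0.01. Scaling by upper quartiles moved the latter to -0.12 and the members' median with it, to -0.14. Without citrate buffer replicate 1, edgeR called 0 members and 1.76% of targets, with 2 members (*Ly6a* and *Plvap*) and 13.2% of targets at an unadjusted p under 0.05. It also called 0 members without citrate buffer replicates 1 and 2 (1.9% of targets) and with the silent-family share described below as a covariate (2.24% of targets).

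**Figure D1:**
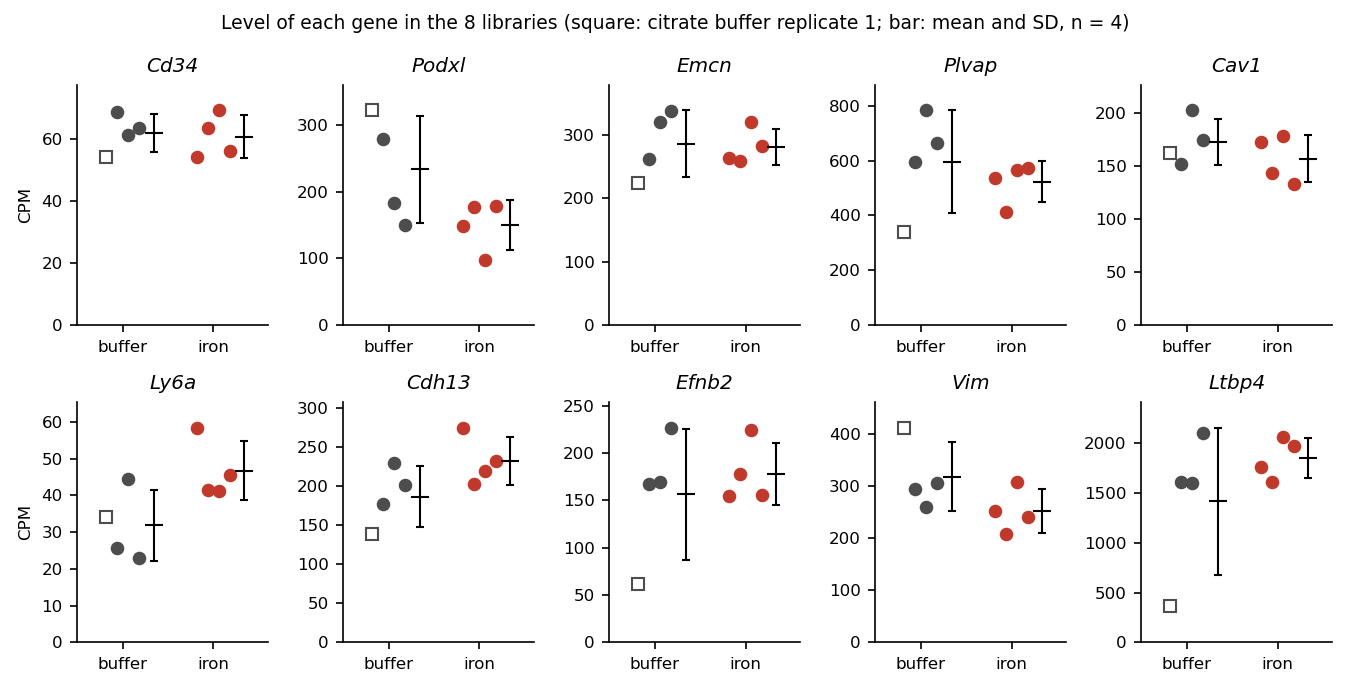
Level of the 10 genes in CPM (vertical axes from 0) in the 4 citrate buffer libraries (grey, with replicate 1 as an open square) and the 4 iron citrate libraries (red); bars give the mean and SD. Groups overlap in all 10 panels, and the open square lies far below the other 7 libraries for *Ltbp4* and *Efnb2* and above them for *Podxl* and *Vim*.

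Library sizes were 7969520 to 11314659 counts on targets, and the members drew between 174 and 21479 counts in a library. Citrate buffer replicate 1 stood apart. Its expression profile correlated less with the rest of its group (median 0.84) than did those of the remaining libraries (0.96 to 0.98). Receptor and keratin-associated families that liver is not known to express took 2.42% of its counts, 0.98% in citrate buffer replicate 2 and at most 0.61% in the others. The sort marker *Stab2* was at 879 to 1222 CPM. *Mcam*, which encodes the sort marker CD146, was at 204 to 285 CPM after buffer and at 165 to 193 CPM after iron, without overlap (log2 fold change -0.50, edgeR adjusted p = 0.239, DESeq2 adjusted p = 0.00279), and its part in the members' levels was not tested. *Ptprc*, which encodes CD45, was at 382 CPM in citrate buffer replicate 1 and at 135 to 208 CPM in the others. The members' fold changes are therefore also given without citrate buffer replicate 1. In these sorted bulk samples a lower level can come from fewer cells of a type or from less RNA per cell, and these cannot be told apart.

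Among the sialomucins, heavily glycosylated proteins of the luminal surface, *Cd34* was steady. CD34 is the classic marker of capillarised sinusoids. It stood at 54.2, 68.7, 61.4 and 63.7 CPM in citrate buffer replicates 1 to 4 and at 54.4, 63.6, 69.3 and 56.1 CPM in iron citrate replicates 1 to 4. The groups covered nearly the same range, and the lowest value of each was 54 CPM to the nearest unit. Its log2 fold change was -0.03 (SE 0.13, edgeR adjusted p = 0.926), and -0.09 without citrate buffer replicate 1. The 95% confidence interval over 8 libraries ran from -0.32 to 0.27, so rises above 1.20-fold lay outside it.

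*Emcn* encodes endomucin, which is typical of capillary and venous endothelium. Its values were 223, 261, 321 and 338 CPM after buffer and 263, 258, 319 and 282 CPM after iron. The lowest of the 8 libraries was citrate buffer replicate 1, and the iron values lay inside the range of the other buffer libraries except for 1 library at 258 CPM. On the log2 scale the fold change was -0.03 (SE 0.16, edgeR adjusted p = 0.944), with a 95% confidence interval of -0.38 to 0.33, and it was -0.13 without citrate buffer replicate 1.

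*Podxl* encodes podocalyxin, which lines the lumen of vessels and covers podocytes and mesothelium. It was at 322, 279, 184 and 150.7 CPM after buffer and at 149, 177, 98.0 and 179 CPM after iron. The 2 highest libraries were citrate buffer replicates 1 and 2, citrate buffer replicate 3 lay just above the highest iron library, and citrate buffer replicate 4 fell among the iron ones. The log2 fold change was -0.63 (SE 0.27, edgeR adjusted p = 0.333). It shrank to -0.44 when citrate buffer replicate 1 was left out (adjusted p = 0.406) and to -0.15 when citrate buffer replicate 2 was left out as well (adjusted p = 0.868). These 2 buffer libraries also had the highest share of counts on the silent families, and with that share as a covariate the value was -0.19 (adjusted p = 0.571).

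PLVAP and caveolin-1 belong to the plasma membrane openings of endothelium. PLVAP builds the thin diaphragms across caveolae and across fenestrae of other organs, while most fenestrae of the adult liver have none. *Plvap* was at 339.8, 594, 784 and 664 CPM in citrate buffer replicates 1 to 4 and at 537, 414, 566 and 575 CPM in iron citrate replicates 1 to 4. The lowest of all was citrate buffer replicate 1, while the other 3 buffer libraries lay above all 4 iron libraries. Over all 8 libraries the log2 fold change was -0.19 (SE 0.24, edgeR adjusted p = 0.691).

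Without citrate buffer replicate 1, *Plvap* was the only member whose groups did not overlap, which 12.9% of tested targets then also showed. There its log2 fold change was -0.38 (SE 0.14, edgeR adjusted p = 0.257). The mean was 681 ± 95.8 CPM (SD, n = 3) in those buffer libraries against 523 ± 74.6 CPM (SD, n = 4) after iron. It did not pass the threshold without citrate buffer replicates 1 and 2 either (-0.47, adjusted p = 0.135), nor with the silent-family share as a covariate (-0.46, adjusted p = 0.138).

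*Cav1* encodes caveolin-1, the main coat protein of caveolae, which also sits at the rim of sinusoidal fenestrae. Its values were 162, 152, 203 and 174 CPM after buffer and 173, 143, 178 and 133 CPM after iron. Citrate buffer replicate 1 lay within the other libraries here, and the 2 lowest values were iron citrate replicates 2 and 4. The log2 fold change was -0.14 (SE 0.15, edgeR adjusted p = 0.62), with a 95% confidence interval of -0.47 to 0.19, and it was -0.17 without citrate buffer replicate 1.

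*Ly6a* and *Cdh13* both encode proteins held in the membrane by a lipid anchor. *Ly6a* encodes SCA-1, a marker of stem and progenitor cells that arterial and capillary endothelium also carries. It stood at 34.2, 25.8, 44.35 and 23.1 CPM after buffer and at 58.5, 41.6, 41.3 and 45.6 CPM after iron. Only citrate buffer replicate 3 reached into the iron range. The mean was 31.85 ± 9.58 CPM after buffer and 46.7 ± 8.06 CPM after iron (SD, n = 4 each). This is a difference of 0.55 on the log2 scale (SE 0.22, edgeR adjusted p = 0.333). Citrate buffer replicate 1 lay inside its group, and without it the value was 0.58 (adjusted p = 0.222). Over the 18 alternative settings it ran from 0.43 to 0.75, with an adjusted p above 0.05 in each.

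*Ly6a* has close relatives, so its reads may in part belong to them. In the GENCODE M21 transcripts, 31.9% of the 31-base words of *Ly6a* also occur in another gene, most of them in *Ly6c1*. The share was 4.97% for *Cd34* and at most 0.375% for the other 8 members. The stretch that the amplicon covers is not known here, and the value of *Ly6a* is uncertain to that extent.

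*Cdh13* encodes T-cadherin, an adhesion molecule that binds adiponectin. It was at 139, 177, 229.6 and 200.5 CPM after buffer and at 274, 202, 219 and 232 CPM after iron. Again citrate buffer replicate 1 was the lowest of the 8 libraries, and citrate buffer replicate 3 lay among the iron libraries. Its log2 fold change was 0.32 (SE 0.17, edgeR adjusted p = 0.347), and 0.20 without citrate buffer replicate 1 (adjusted p = 0.567).

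*Efnb2* encodes ephrin-B2, the ligand that arterial endothelium presents to its venous receptor EPHB4. Its values were 61.7, 167, 169 and 227 CPM after buffer and 154, 178, 224 and 155 CPM after iron. Well below the other 7 libraries lay citrate buffer replicate 1, and among those 7 the groups overlapped almost fully. The fold change was 0.19 on the log2 scale (SE 0.33, edgeR adjusted p = 0.781), and it changed sign without citrate buffer replicate 1 (-0.08, adjusted p = 0.842).

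*Ltbp4* encodes a binding protein that stores latent TGF-beta in the matrix and helps to assemble elastic fibres. It stood at 365, 1606, 1602 and 2096 CPM after buffer and at 1758, 1612.5, 2058 and 1973 CPM after iron. Its mean in citrate buffer replicates 2 to 4 was 4.84-fold that in citrate buffer replicate 1, the widest gap among the members. Its log2 fold change was 0.385 (SE 0.41, edgeR adjusted p = 0.628), and 0.07 without citrate buffer replicate 1 (adjusted p = 0.856). At least 3834 counts lay behind each value, the low one included.

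*Vim* encodes vimentin, the intermediate filament of mesenchymal, endothelial and blood cells. It was at 412, 294, 259 and 307 CPM after buffer and at 253, 207, 307 and 241 CPM after iron. The highest of the 8 libraries was citrate buffer replicate 1, and iron citrate replicate 3 lay level with the next highest buffer library. The fold change was -0.34 on the log2 scale (SE 0.18, edgeR adjusted p = 0.341), and -0.19 without citrate buffer replicate 1 (adjusted p = 0.591).

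**Figure D2:**
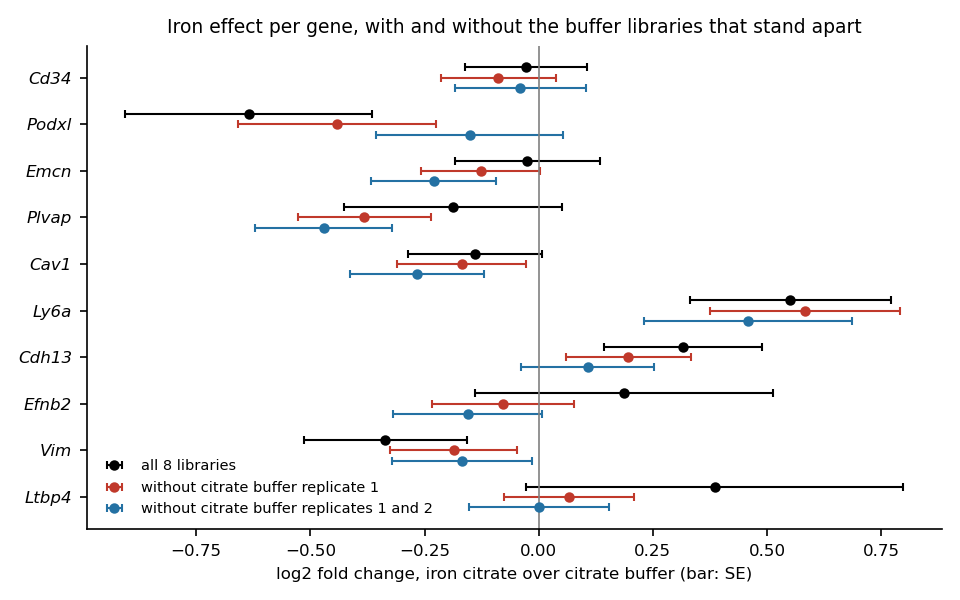
Log2 fold change of each gene (horizontal axis, iron citrate over citrate buffer, with SE) in edgeR fits of all 8 libraries (black), without citrate buffer replicate 1 (red) and without citrate buffer replicates 1 and 2 (blue). *Podxl* and *Ltbp4* move towards 0 in the smaller fits and *Plvap* away from it, while *Ly6a* stays between 0.46 and 0.58.

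Promoter windows were examined because known targets of NRF2, a factor that binds antioxidant response elements, were among the genes that rose most. *Hmox1* rose by 5.19, *Nqo1* by 4.75 and *Gclm* by 3.73 on the log2 scale (edgeR adjusted p = 1.19e-05, 5.71e-06 and 9.80e-06), genes named after their values were seen. RefSeq windows on GRCm38.p6 were matched for 6 of the 10 members, *Cd34*, *Vim*, *Emcn*, *Cav1*, *Ltbp4* and *Efnb2*, which have 9 start sites between them. The 250 bases before each start were searched on both strands for the core TGACNNNGC, which 10.2% of the 32851 windows of all genes held. *Cd34*, *Ltbp4* and *Efnb2* had it, each at 1 start site, and their windows are printed 5′ to 3′ in the direction of the gene, with the core in capitals.
Cd34, chr1:194938571-194938820, plus strand: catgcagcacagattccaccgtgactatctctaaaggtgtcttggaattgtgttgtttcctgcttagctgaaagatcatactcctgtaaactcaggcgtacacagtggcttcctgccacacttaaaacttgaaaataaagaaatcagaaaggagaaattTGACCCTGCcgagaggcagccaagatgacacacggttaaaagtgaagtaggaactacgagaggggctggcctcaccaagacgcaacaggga
Ltbp4, chr7:27337613-27337862, minus strand: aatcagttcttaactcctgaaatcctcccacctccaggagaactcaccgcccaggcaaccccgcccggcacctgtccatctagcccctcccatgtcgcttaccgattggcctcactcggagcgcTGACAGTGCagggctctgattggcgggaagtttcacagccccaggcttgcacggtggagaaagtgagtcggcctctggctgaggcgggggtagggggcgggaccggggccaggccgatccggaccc
Efnb2, chr8:8661243-8661492, minus strand: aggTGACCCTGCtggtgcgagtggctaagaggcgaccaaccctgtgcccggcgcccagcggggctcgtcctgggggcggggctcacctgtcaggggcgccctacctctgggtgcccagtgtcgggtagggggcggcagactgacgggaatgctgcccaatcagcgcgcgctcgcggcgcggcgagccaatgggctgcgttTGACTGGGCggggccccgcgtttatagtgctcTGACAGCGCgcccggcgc
The core starts 91 bases before the start in *Cd34* and 126 bases before it in *Ltbp4*. *Efnb2* holds it 3 times, 247, 50 and 18 bases before the start, and 14 of all windows (0.0426%) hold it at least 3 times. None of the 3 genes was called after iron citrate, and their groups overlapped. A match of these letters is a description of the window and not a binding site.

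The 10 members differed in how far citrate buffer replicate 1 lay from the rest. It was below the other 7 libraries in 6 members, *Cd34*, *Emcn*, *Plvap*, *Cdh13*, *Efnb2* and *Ltbp4*, and above them in *Podxl* and *Vim*. Over all tested targets it was the lowest library in 36.6% and the highest in 37.4%. Relative to the mean of citrate buffer replicates 2 to 4, its level was 0.207 for *Ltbp4*, 0.328 for *Efnb2* and 0.499 for *Plvap*, and 1.58 for *Podxl* and 1.44 for *Vim*. The coefficient of variation over the 4 buffer libraries was 52.1% for *Ltbp4* and 44.0% for *Efnb2*, against 10.96% and 18.4% over the 4 iron libraries. For *Cd34* it was 9.75% and 11.4%, and for *Cav1* 12.7% and 14.1%.

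Marker sums of several cell types also stood apart in this library. Over 23 sinusoidal endothelial markers the summed level was 24078 CPM in citrate buffer replicate 1, against 37409 to 48847 CPM in the other buffer libraries and 39677 to 43418 CPM after iron. Other endothelial and matrix lists were low there too. Over 23 continuous endothelial markers the sum was 9549 CPM against 16125 to 20582 CPM and 14999 to 17453 CPM. Over 12 basement membrane genes it was 2269 CPM against 4139 to 5777 CPM and 5099 to 5776 CPM. Over 6 lymphatic markers it was 482 CPM against 1242 to 2085 CPM and 1510 to 1778 CPM. Over 20 arterial and large-vessel markers it was 2131 CPM against 2696 to 2779 CPM, within the 2012 to 2488 CPM after iron. Over 11 markers of blood progenitors and lymphocytes it was 1859.7 CPM against 969 to 1362 CPM and 1144 to 1294 CPM, and over 9 mesothelial markers 111 CPM against 36.2 to 58.0 CPM and 44.4 to 53.3 CPM. Over 7 platelet markers it was 50.1 CPM against 21.9 to 30.4 CPM and 22.9 to 28.9 CPM. Over 12 stellate and fibroblast markers it was 288 CPM against 379 to 701 CPM and 466 to 698 CPM. The part of these in the levels of *Podxl*, *Vim*, *Ltbp4* and *Efnb2* was not tested.

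**Figure D3:**
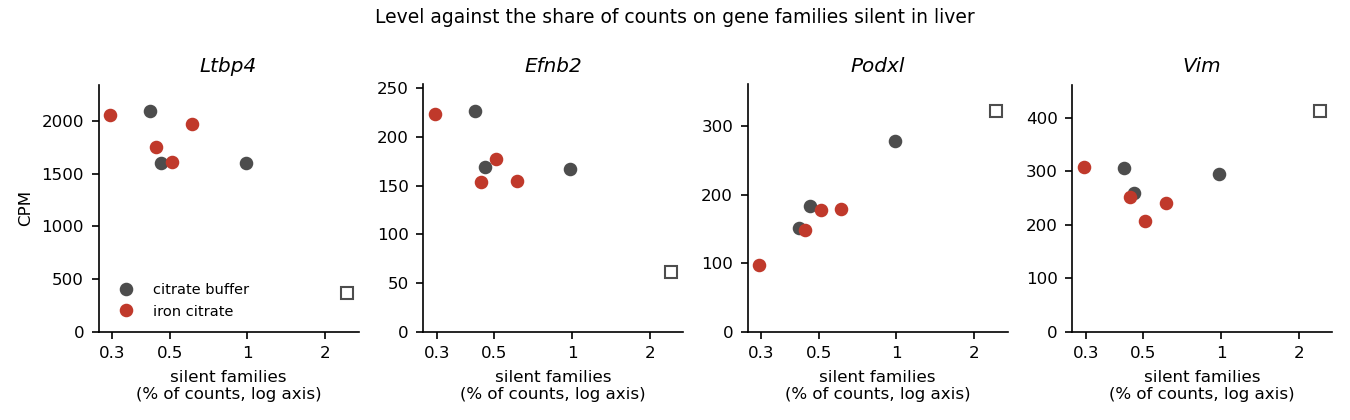
Levels of 4 members in CPM (vertical axes from 0) against the percentage of counts on gene families silent in liver (log axis), for citrate buffer (grey, replicate 1 as an open square) and iron citrate (red). At 2.42% citrate buffer replicate 1 has the lowest *Ltbp4* and *Efnb2* and the highest *Podxl* and *Vim*.

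Genes that work with the members, and other endothelial markers, were read in the same fits. In 9 companion lists and 3 lists of endothelial markers, with 82 and 59 tested genes, 0 were called by edgeR over all 8 libraries. There 10 (12.2%) and 9 (15.3%) had an unadjusted p under 0.05, against 14.6% of all targets. Without citrate buffer replicate 1, 13.4% of the companion genes and 32.2% of the endothelial markers had one in edgeR, against 13.2% of all targets. Among the endothelial markers the share was 30.5% in limma-voom (14.6% of all targets) and 20.3% in DESeq2 (20.7% of all targets). The cause of these differences was not tested. DESeq2 called 1 companion gene (*Lama5*) and 4 endothelial markers (*Edn1*, *Mcam*, *Nr2f2* and *Vwf*). limma-voom called *Gpihbp1*, which is in both kinds of list, and the endothelial markers *Cldn5*, *Mcam* and *Nr2f2*. *Nr2f2*, a venous transcription factor, had groups that did not overlap and a log2 fold change of -0.81 (adjusted p = 0.234 in edgeR, 0.0166 in DESeq2 and 0.0363 in limma-voom). *Edn1*, the vasoconstrictor endothelin-1, was at 1.19 (adjusted p = 0.264 in edgeR and 0.0284 in DESeq2). *Nr2f2*, *Edn1*, *Gpihbp1* and *Cldn5* are named after their values were seen. The share of all targets called by each tool is given above.

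In what follows, each log2 fold change or list median over 8 libraries is followed in parentheses by its value without citrate buffer replicate 1. By role, the caveola coat (6 tested) had a median of 0.06 (-0.08), with *Cav2*, the partner of caveolin-1, at -0.20 (-0.29) and *Cavin1*, which shapes caveolae, at 0.09 (-0.11). Other sialomucins (3 tested) had -0.20 (-0.08), with *Cd164* at -0.31 (-0.20) and *Spn* at -0.01 (0.007). The *Ly6* family (7 tested) had -0.72 (-0.65), with *Ly6e* at -0.0068 (-0.05) and *Ly6d* at -0.48 (-0.25). Both named genes lay above that median. Of the 7 tested, 2 had an unadjusted p under 0.05 and 1 had groups that did not overlap, against 14.6% and 8.64% of all targets. Cadherins (6 tested) had -0.13 (-0.20), with *Cdh1* at 0.71 (0.64) and *Cdh2* at -0.0079 (-0.10). Intermediate filament genes (9 tested) had -0.08 (0.09), with the lamins *Lmna* at 0.06 (0.22) and *Lmnb1* at -0.05 (0.07). Latent TGF-beta binding proteins and elastic fibre genes (11 tested) had 0.17 (-0.03), with *Ltbp1* at 1.03 (0.77) and *Ltbp2* at -0.83 (-0.13). Ephrins and their receptors (10 tested) had 0.08 (-0.09), with *Efnb1* at 0.08 (-0.14) and *Efnb3* at -1.30 (-0.54). The medians of the caveola coat, intermediate filaments, elastic fibres and ephrins changed sign without that library. *Cavin1* was also below 0 with upper-quartile scaling, and *Lmna* and *Efnb1* were so with upper-quartile scaling and with library totals. The edgeR adjusted p-values of these genes over 8 libraries were 0.333 or higher.

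Genes that hold or lose the sinusoidal state had medians that lay near 0 once citrate buffer replicate 1 was left out. Regulators of capillarisation (18 tested) had 0.14 (0.0089), with *Gata4*, which keeps sinusoidal identity, at 0.39 (0.21) and *Maf* at -0.35 (-0.44). Basement membrane genes (12 tested), which capillarised sinusoids lay down, had 0.21 (0.0064), with the laminin chains *Lama4* at 0.13 (-0.09) and *Lama5* at 0.89 (0.76). Sinusoidal markers (23 tested) had 0.14 (0.01), with *Stab2* at -0.15 (-0.23) and *Stab1* at 0.19 (-0.05). Of these genes *Lama5* had groups that did not overlap, at 14.95 to 27.4 CPM after buffer and 28.9 to 47.2 CPM after iron, and DESeq2 called it (adjusted p = 0.0348) while edgeR did not (0.231). For *Gata4*, *Maf*, *Lama4*, *Stab2* and *Stab1* the edgeR adjusted p-values over 8 libraries were 0.333 or higher. In all, 2 of the 12 basement membrane genes did not overlap, where 8.64% of all tested targets did not. The second was *Lamc1*, named after its values were seen, at 14.2 to 49.5 CPM after buffer and 59.2 to 86.7 CPM after iron. Its log2 fold change was 1.10 (edgeR adjusted p = 0.302), and edgeR called it without citrate buffer replicate 1 (0.85, adjusted p = 0.0436).

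Other markers of continuous endothelium (21 tested) had a median of -0.02 (-0.16), with *Pecam1* at -0.02 (-0.10) and *Cdh5* at 0.26 (0.19). Arterial and large-vessel markers (16 tested) had a median of 0.32 (0.27), with *Sox17* at 0.57 (0.38). These 3 genes had edgeR adjusted p-values of 0.333 or higher over 8 libraries. Groups did not overlap for *Cdh5*, at 936 to 1239 CPM after buffer and 1265 to 1433 CPM after iron. The same held for *Sox17*, at 6.57 to 13.5 CPM and 15.9 to 18.2 CPM, while those of *Pecam1* overlapped. In all, 4 of the 21 continuous and 3 of the 16 arterial markers did not overlap, against 8.64% of all tested targets. *Vwf*, the clotting factor stored in large-vessel endothelium, was at 4.76, 17.7, 21.1 and 30.3 CPM after buffer and at 76.0, 40.8, 143 and 40.9 CPM after iron. Its groups did not overlap, and its log2 fold change was 2.03 (SE 0.55, edgeR adjusted p = 0.239). DESeq2 called it (adjusted p = 0.0131), and edgeR without citrate buffer replicate 1 did not (1.72, adjusted p = 0.194).

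**Figure D4:**
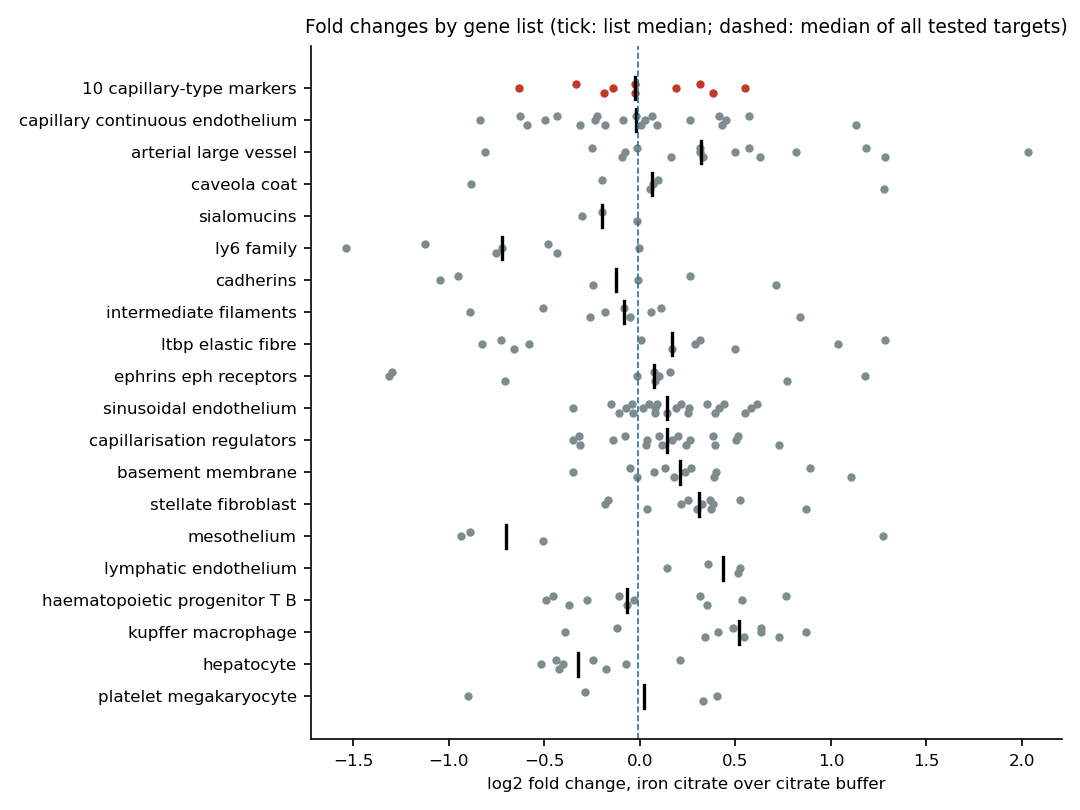
Log2 fold change, iron citrate over citrate buffer, of each tested gene in the 10 members (red) and 19 companion and marker lists (grey). Short vertical bars mark list medians and the dashed line the median of all tested targets, -0.01; no gene shown was called by edgeR, and the member median of -0.03 lies next to the dashed line.

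Markers of other cell types were read for comparison. Of 52 tested genes in 7 lists 0 were called by edgeR, while DESeq2 called 1 (*Gpm6a*) and limma-voom 0. In edgeR 2 of them (3.85%) had an unadjusted p under 0.05, against 14.6% of all targets. With the value without citrate buffer replicate 1 again in parentheses, the log2 fold changes were -0.18 (-0.22) for *Des* and -0.17 (-0.02) for *Pdgfrb* of stellate cells, -0.94 (-0.36) for *Msln* and 1.28 (1.175) for *Gpm6a* of mesothelium, and 0.51 (0.51) for *Prox1* and 0.52 (0.24) for *Reln* of lymphatic vessels. They were -0.27 (0.13) for *Ptprc* and 0.53 (0.53) for *Kit*, both listed here with blood progenitors and lymphocytes. *Kit* was at 127 CPM in citrate buffer replicate 1, inside the 102 to 156 CPM of the other buffer libraries, unlike *Ptprc*. The log2 fold changes were 0.63 (0.27) for *Clec4f* and 0.73 (0.41) for *Vsig4* of Kupffer cells, -0.52 (-0.68) for *Alb* and -0.44 (-0.52) for *Apoa1* of hepatocytes, and -0.29 (-0.06) for *Pf4* and 0.40 (0.72) for *Ppbp* of platelets. Over 8 libraries the list medians ran from -0.70 for mesothelium (4 tested) to 0.52 for Kupffer cells and macrophages (10 tested). Without citrate buffer replicate 1 these 2 medians were -0.23 and 0.169. The lowest was then -0.48 for hepatocytes (8 tested, -0.32 over 8 libraries) and the highest 0.173 for lymphatic endothelium (4 tested).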

How the data were processed

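The authors deposited whole-number read counts per RefSeq target for Ion AmpliSeq libraries, 1 file per library. HTSeq 0.6.0 and DESeq2 1.18.1 appear in the submitters' processing notes, while the sources used here give no aligner or build. One amplicon reads each gene, so levels are not compared between genes. HTSeq's summary lines (2.15% to 4.60% of reads) were left out, and symbols were matched through the RefSeq and GENCODE M21 tables, with 1368 targets unmatched.

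The groups, 4 against 4, follow the labels. edgeR 4.0.16 (R 4.3.3) was run with filterByExpr, TMM scaling and a robust quasi-likelihood F-test, with Benjamini-Hochberg adjustment over 14601 targets. SEs come from the F statistic. Alternatives were DESeq2 1.42.0, limma-voom (limma 3.58.1), other scaling and filters, a replicate block, a silent-family covariate and left-out libraries. The fits were tested on simulated data with known changes. When 99 targets were shifted by 2-fold, edgeR found 39, DESeq2 59 and limma-voom 36. When 100 were shifted by 4-fold, the tools found 78, 87 and 73 in the same order. A member that was not called can therefore still have changed. Of the 14284 simulated targets left unchanged, edgeR called 5, DESeq2 49 and limma-voom 5. A call by DESeq2 alone is therefore less certain. In the 28 pairs of libraries chi-square per degree of freedom was at least 8.34, above the sampling noise of a library deposited again. Members and lists were chosen with earlier results of these data known. The naming rule took all members, from each companion list up to 4 called genes or else the first 2 tested ones, from each marker list the first 2 tested ones and any called one, and 3 sort markers.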

Additional observations from a re-analysis of the deposited data

Results flagged for a closer look

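In a group of 4 libraries, a value was singled out when its gap to the nearest other relative to the group's range exceeded Dixon's 95% critical value. None of the 20 groups of the members met this. Over the 114 groups of all genes named here with values 9 did, and chance gives about 1 in 20. In citrate buffer replicate 1, *Sox17* was low at 6.57 CPM against 12.6 to 13.5 CPM and *Cd164* high at 779.8 CPM against 590.4 to 608 CPM. In iron citrate replicate 1, *Cd164* was low at 285 CPM against 583 to 619.6 CPM, while the hepatocyte genes *Alb* (479 CPM against 253 to 281 CPM) and *Apoa1* (66.8 CPM against 19.4 to 27.2 CPM) were high. *Ly6e* was high in citrate buffer replicate 3, at 1801 CPM against 1313 to 1344 CPM. In iron citrate replicate 3, *Msln* was low at 10.5 CPM against 17.99 to 18.8 CPM and *Gpihbp1* high at 1050.4 CPM against 720.4 to 749 CPM. *Cldn5* was high in iron citrate replicate 4, at 193 CPM against 129 to 134 CPM.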

How the results depend on the processing

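In each of the 18 alternatives 0 of the 10 members were called, and 168 of their 180 log2 fold changes kept their sign. Of all tested targets 81 were called. DESeq2 called 352, limma-voom 290, the silent-family covariate gave 327, leaving out citrate buffer replicates 1 and 2 gave 281, and leaving out 1 library in turn gave 46 to 259, the highest without citrate buffer replicate 1. In the companion lists, where 0 were called, DESeq2 and limma-voom called 1 each, the covariate and leaving out both libraries gave 2 each, and leaving out 1 library gave 0 to 1. The replicate block called 43 targets and 0 members. Same-numbered libraries deviated together (correlation over 0.1) in 2 of 4 pairs, and 2 of 8 libraries correlated best with their own number, so the numbers were not taken as pairs.

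The log2 fold changes that changed sign follow, and the cause was not tested. With upper-quartile factors they were -0.00146 for *Cavin1*, -0.072 for *Lmna* and -0.017 for *Efnb1*. With library totals they were -0.066 for *Lmna* and -0.00401 for *Efnb1*. With no filter there was 0.0013 for *Ly6e*. With the replicate block there was 0.0072 for *Cdh2*. With limma-voom they were -0.071 for *Efnb2*, -0.13 for *Cavin1*, 0.00665 for *Spn*, 0.032 for *Ltbp2*, -0.17 for *Efnb1*, -0.083 for *Stab1*, -0.060 for *Lama4*, 0.11 for *Ptprc* and 0.00489 for *Pf4*. With the silent-family covariate they were -0.25 for *Efnb2*, -0.067 for *Ltbp4*, -0.27 for *Cavin1*, 0.079 for *Lmnb1*, 0.26 for *Ltbp2*, -0.15 for *Efnb1*, -0.17 for *Stab1*, -0.18 for *Lama4*, 0.046 for *Pdgfrb*, 0.17 for *Ptprc*, -0.20 for *Clec4f* and 0.032 for *Pf4*. Without citrate buffer replicates 1 and 2 they were -0.16 for *Efnb2*, -0.25 for *Cavin1*, 0.041 for *Spn*, 0.072 for *Lmnb1*, 0.33 for *Ltbp2*, -0.17 for *Efnb1*, -0.22 for *Stab1*, -0.15 for *Lama4*, 0.00947 for *Pdgfrb*, 0.034 for *Msln*, 0.11 for *Ptprc* and 0.10 for *Pf4*. Leaving out 1 library in turn gave -0.092 to 0.025 for *Cd34*, -0.13 to 0.067 for *Emcn*, -0.079 to 0.42 for *Efnb2*, -0.10 to 0.022 for *Pecam1*, -0.11 to 0.26 for *Cavin1*, -0.090 to 0.091 for *Spn*, -0.12 to 0.12 for *Ly6e*, -0.10 to 0.11 for *Cdh2*, -0.064 to 0.22 for *Lmna*, -0.13 to 0.072 for *Lmnb1*, -0.14 to 0.23 for *Efnb1*, -0.053 to 0.42 for *Stab1*, -0.089 to 0.34 for *Lama4* and -0.44 to 0.13 for *Ptprc*. With 4 libraries a group, intervals such as that of *Ltbp4*, -0.54 to 1.31, leave room for changes of over 2-fold.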

Other observations

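With citrate buffer replicate 1 left out, 4 of the 182 tested genes in the lists were called, 2 in each direction, where 1.76% of all targets were. *Mcam*, a marker of the sort, was lower after iron (log2 fold change -0.59, SE 0.11, edgeR adjusted p = 0.0135), and so was *Cldn5*, the tight-junction claudin of continuous endothelium (-0.68, SE 0.15, adjusted p = 0.033). The laminin chain *Lamc1* was higher (0.85, SE 0.20, adjusted p = 0.0436), as was *Gpm6a* (1.175, SE 0.26, adjusted p = 0.0344), which is listed here with mesothelium. In all 8 libraries the edgeR adjusted p-values of these 4 genes were 0.239, 0.303, 0.302 and 0.147 with TMM scaling. Some other fits of all 8 libraries did call them. *Mcam* passed in edgeR with library totals (0.0452) and upper-quartile factors (0.0464), in DESeq2 (0.00279), in limma-voom (0.00814) and with the silent-family covariate (0.00537). *Cldn5* passed in limma-voom (0.0115) and with the covariate (0.0385), *Lamc1* with the covariate (0.0133), and *Gpm6a* in DESeq2 (0.0024) and with the covariate (0.0382). *Gpihbp1*, the capillary anchor of lipoprotein lipase, was at 570.1, 968, 1377 and 1495 CPM after buffer and at 720.4, 746, 1050.4 and 749 CPM after iron. It was called lower only without citrate buffer replicates 1 and 2 (-0.82, adjusted p = 0.00523), with the silent-family covariate (-0.82, adjusted p = 0.00132) and by limma-voom (-0.71, adjusted p = 0.0417). *Cldn5*, *Lamc1* and *Gpihbp1* were named after their values were seen.

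The level of *Podxl* varied with the share of counts on silent families. This pattern was first seen in these same values, so no p-value is given for it. Over 8 libraries of both groups log2(CPM + 1) and the log2 share had Pearson's r = 0.92 and Spearman's rho = 0.90. Without citrate buffer replicates 1 and 2, the libraries farthest from the median share, r was 0.91 and rho 0.77 over 6 libraries. A rho at least as high was found in 7.66% of all tested targets. For *Ltbp4* r was -0.89 over 8 libraries and -0.37 over 6, while rho was -0.74 and -0.54. For *Efnb2* r was -0.91 and -0.74, and rho -0.69 and -0.54. For *Vim* r changed sign, from 0.60 to -0.73, and rho was -0.05 and -0.89. With 4 libraries a group, no value within a group was computed.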
